A study of Mus musculus with 10 samples.

Results

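The clustered protocadherin genes are the genes of the Pcdha, Pcdhb and Pcdhg families, which lie side by side on mouse chromosome 18 and encode cadherin-like adhesion proteins of the cell surface. The members described here were the 58 genes of the GRCm38 annotation whose symbols start with Pcdha, Pcdhb or Pcdhg, 57 of them protein-coding and 1 (Pcdhgb8) a transcribed pseudogene. They were followed through the accessible regions found in the 1 Mb interval that holds them, 49 of 131656 regions in young cells and 39 of 117284 in aged cells. The rule used gene symbols and position, and no measured value.

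The assay was ATAC-seq, which maps open chromatin by where a transposase can insert. The cells were muscle stem cells from C57BL/6 mice, isolated by FACS as positive for α7-integrin and CD34. The cells were kept for 2 h in medium with serum and bFGF, and either prostaglandin E2 (PGE2), a lipid signal released in injured muscle, or the vehicle, 0.1% DMSO. Young mice (8 to 20 weeks) gave 2 libraries with vehicle and 2 with PGE2, and aged mice (20 to 25 months) gave 3 with each. The values came from 2 peak lists of PGE2-treated cells, 1 per age, so ages were compared under the same treatment, and the response to PGE2 was not analysed here. Because an age is represented by 1 list and not by its libraries, differences between the ages have neither replicate error nor test.

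In the alpha and gamma clusters each gene begins with its own variable exon, which has its own promoter and is spliced to constant exons shared by all genes of the cluster. The genes of the beta cluster have no constant exons. Neurons are known to choose a few of the alternate variable promoters, largely at random for each cell, which gives neighbouring neurons different surface identities. The C-type genes (Pcdhac1, Pcdhac2, Pcdhgc3, Pcdhgc4 and Pcdhgc5) lie at the downstream end of their clusters and are not chosen at random in this way. The choice is known to depend on CTCF and cohesin, which bring alternate promoters to enhancers that lie downstream of the variable exons, and silent promoters are methylated.

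Of the 58 genes, 6 had a region within 1 kb of the start of the variable exon at both ages, 12 in young cells only, 0 in aged cells only and 40 at neither age. The 6 were the 5 C-type genes and Pcdhgb6, and the 12 were 6 beta genes and 6 alternate gamma genes. Among 17491 protein-coding genes with a known strand, 60.4% had a start region at both ages, 2.70% in young cells only, 0.360% in aged cells only and 36.6% at neither age. The young list had a region at 18 of the 58 member starts (31.0%, background 63.1%) and the aged list at 6 (10.3%, background 60.8%). The members therefore lay above the background in young-only starts (20.7%, 95% exact binomial interval 11.2 to 33.4) and below it in starts open at both ages (10.3%, 3.89 to 21.2). These intervals cover counting error over genes alone, and the genes share an interval and similar exons, so they are not replicates of age. The count of 0 aged-only starts allows a share of up to 5.17%. Of the 12 young-only starts, 5 (Pcdhb2, Pcdhb3, Pcdhb4, Pcdhgb1 and Pcdhga7) were still young-only when regions of at least 3-fold were used. When both lists were restricted to their 58642 strongest regions, 1 start (Pcdhgb1) was young-only and 1 (Pcdhac1) aged-only. A smaller share of cells with an open promoter, a promoter less open in each cell and a weak region that missed the caller's threshold cannot be told apart. The cells were assayed in bulk, with 1 list of unknown depth per age.

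**Figure D1:**
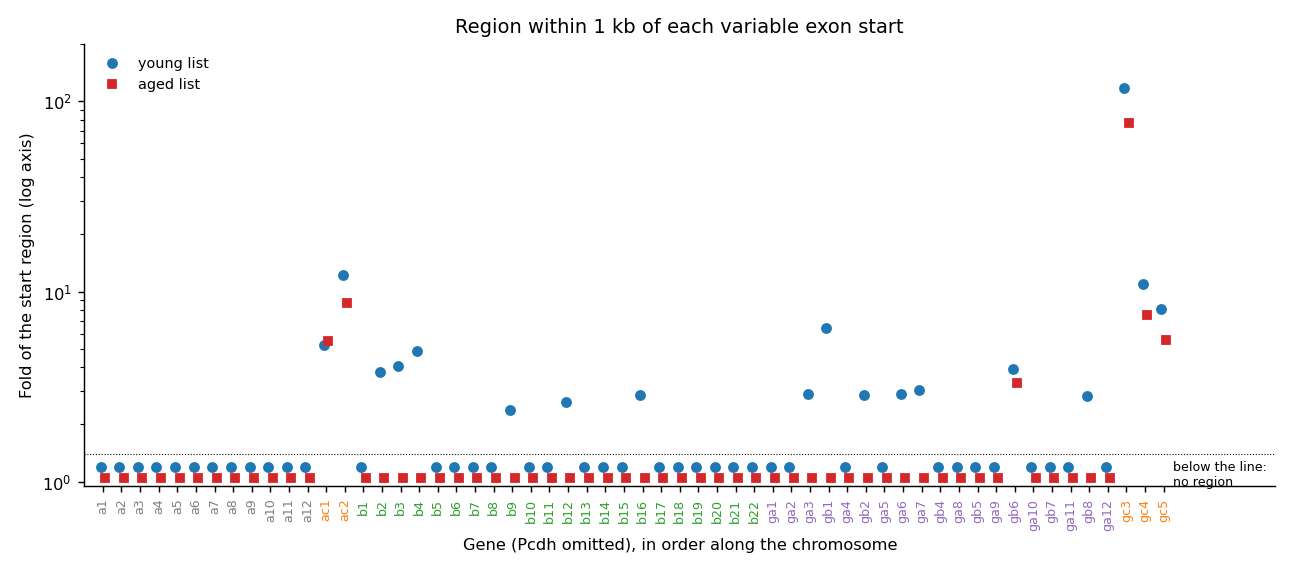
Fold over background (log axis) of the strongest region within 1 kb of the start of each of the 58 genes, in chromosomal order, in the young list (blue circles) and the aged list (red squares); symbols below the dotted line mark genes with no region. All 5 C-type genes (orange labels) have both symbols above the line, the 12 alternate alpha genes (grey) have neither, and 12 beta (green) and alternate gamma (purple) genes have the young symbol alone.

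The C-type starts were accessible at both ages. Pcdhgc3, the C-type gene nearest to the alternate gamma genes, had by far the strongest start region of all members, 117-fold over background among young regions and 77-fold among aged regions as the authors' caller gave it. The common step of the folds gave a pileup of 2663 and 1601 at the summits. Pileup values are called fragments below, but what the caller piled up (fragments, reads or cut sites) is not given. Statements on counting error between regions take these values as independent counts, which is not shown. The regions stood at percentiles 99.0 and 98.8 of their own lists by significance. Folds are read within a list only, because the depth of neither list is known, and the percentile is the share of a list's regions that are weaker. The region ran from chr18:37805411 to 37808923 in the young list and from chr18:37805805 to 37808577 in the aged list, and its summit lay 56 and 57 bp before the annotated start.

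The other C-type starts stood above the median region of their lists but far below Pcdhgc3. Pcdhac2 had a start region of 12.2-fold (276 fragments) in young cells and 8.75-fold (181 fragments) in aged cells. Pcdhgc4 had 11.0-fold and 7.54-fold. Pcdhgc5 had 8.06-fold and 5.53-fold. Pcdhac1 had 5.24-fold and 5.48-fold. The order of the 5 genes (Pcdhgc3, Pcdhac2, Pcdhgc4, Pcdhgc5, Pcdhac1) was the same in both lists. Over all gene starts with a region the median was 45.8-fold (young) and 30.1-fold (aged), so of the C-type genes Pcdhgc3 alone stood above the median gene in either list. Within the aged list Pcdhgc5 and Pcdhac1 came from 114 and 113 fragments, which counting error does not separate. The same holds for Pcdhac2 and Pcdhgc4, with 276 and 250 fragments in the young list and 181 and 156 in the aged list.

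None of the 12 alternate alpha genes, Pcdha1 to Pcdha12, had a start region in either list. A count of 0 of 12 allows a share of up to 25.0%. The span from the start of Pcdha1 (chr18:36930285) to 37188897 held 3 young and 5 aged regions in 259 kb, and the most upstream of them belonged to Pcdhac1. The 2 aged regions with no overlap in the young list both lay in this span, at chr18:37141314-37141737 (3.12-fold), 2.24 kb before the start of Pcdhac2, and at chr18:37172391-37172614 (2.45-fold). The 12 alternate alpha starts themselves thus gave no value that could differ between the ages.

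In the beta cluster, whose genes are each a single variable exon, 6 of 22 starts (27.3%, 10.7 to 50.2) had a region in the young list and 0 of 22 in the aged list, which allows up to 13.6%. These were Pcdhb2, Pcdhb3, Pcdhb4, Pcdhb9, Pcdhb12 and Pcdhb16. The regions at these starts were the only ones in the 257 kb of the beta cluster in the young list, and the aged list had none there. The strongest were at 3 adjacent genes. Pcdhb4 reached 4.89-fold with 110 fragments (chr18:37307292-37307520), Pcdhb3 4.05-fold with 91 fragments (chr18:37300718-37300879) and Pcdhb2 3.79-fold with 85 fragments (chr18:37294731-37295124). Pcdhb16 (2.86-fold, 64 fragments), Pcdhb12 (2.64-fold, 59 fragments) and Pcdhb9 (2.38-fold, 53 fragments) were weaker and stood apart from each other along the cluster. The nearest aged region was between 76.2 kb (from Pcdhb2) and 208 kb (from Pcdhb12) away.

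In the gamma cluster, 7 of the 19 alternate starts had a region in the young list and 1 of 19 in the aged list. Pcdhgb6 had one at both ages, 3.92-fold with 88 fragments in the young list (chr18:37741902-37742182) and 3.32-fold with 68 fragments in the aged list (chr18:37741971-37742170). The 6 young-only starts were Pcdhgb1, Pcdhga7, Pcdhga3, Pcdhga6, Pcdhgb2 and the pseudogene Pcdhgb8. Pcdhgb1 was the strongest, at 6.43-fold with 145 fragments and a width of 528 bp (chr18:37680108-37680635, percentile 59.2). The other 5 lay close together, from 2.82-fold at Pcdhgb8 to 3.04-fold at Pcdhga7, with 63 to 68 fragments. Pcdhga6 had a second young region, with its summit 374 bp after the start, at chr18:37707213-37707541 (2.6-fold), again with no overlap in the aged list. By subtype, 3 of the 12 A-type genes and 4 of the 7 B-type genes had a start region in the young list. Young-only starts were 3 of 12 for A (5.49% to 57.2%) and 3 of 7 for B (9.9% to 81.6%). These intervals overlap widely, so the counts are too few to order the subtypes by young-only share.

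The start regions of the alternate genes were narrow and sat on the annotated start. In all 12 young-only cases the summit lay within 150 bp of the start, from 114 bp before it (Pcdhgb8) to 11 bp after it (Pcdhb9), with a median of 32 bp before it. In the 965 gene starts of the genome with a young region in the fold range of the 12, from 2.38-fold to 6.43-fold, the summit lay within 150 bp in 38.3%. The median width of the 12 was 162 bp, against 507 bp for those 965 starts. The narrowest, at Pcdhga6, had 149 bp. This is the smallest width in both lists and is shared by other regions, so the median of the 12 lies near the lower limit of the calls. The 2 groups are not matched in strength within the range. Of the 12, 7 lay under 3-fold, while 267 of the 965 lay from 3-fold to under 4-fold, 220 from 4-fold to under 5-fold and 188 from 5-fold to under 6-fold. Width and summit position were not compared at equal fold. The start base itself was covered in 11 of the 12 cases, Pcdhgb8 being the exception. C-type regions were wider, from 619 to 3513 bp in the young list and from 372 to 2773 bp in the aged list, and their summits lay up to 418 bp before the start in the young list and 425 bp in the aged list (Pcdhgc4 in both).

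**Figure D2:**
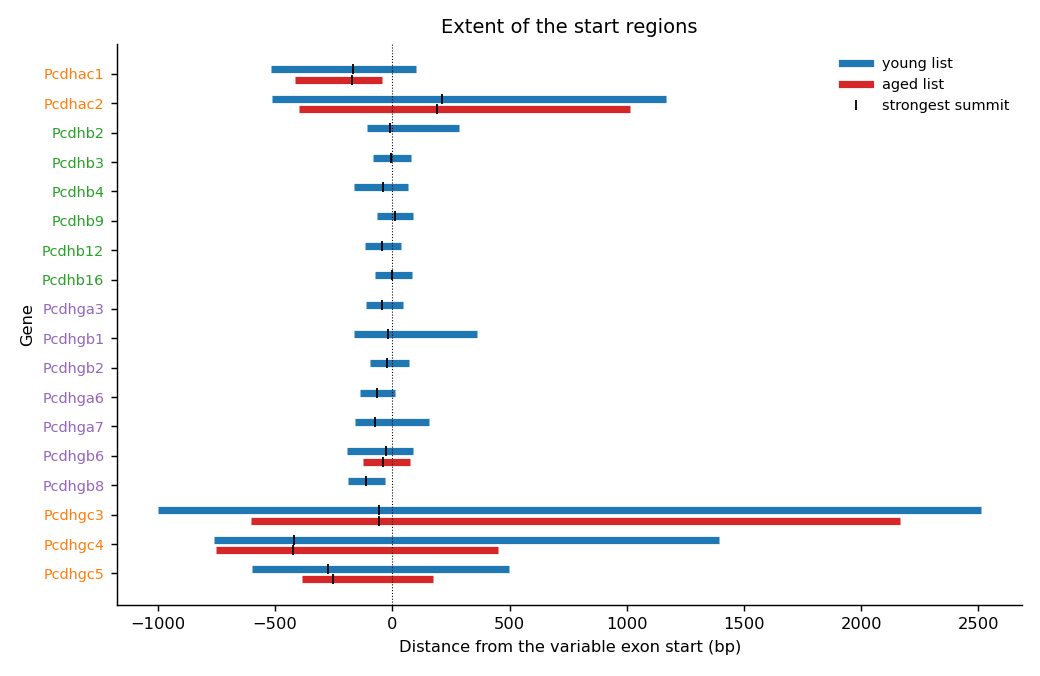
Extent of the start region of each of the 18 genes that had one, as distance in bp from the start of the variable exon (dotted line), in the young list (blue bars) and the aged list (red bars), with the strongest summit as a black tick. Bars of the alternate beta and gamma genes (green and purple labels) are narrow and centred near 0, with young bars alone except at Pcdhgb6, while C-type bars (orange labels) are wider and present in both lists.

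Across the genome, weak young regions often had no counterpart in the aged list. The 12 young-only starts ranged from 2.38-fold to 6.43-fold with a median of 2.91, whereas the lists began at 1.76-fold (young) and 1.83-fold (aged). Among gene starts with a young region in that range, 332 of 965 (34.4%) had no aged region in the window. The range was set by the 12 starts themselves, so no share of members within it is set against that value. The members are read by bands of fold instead.

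The weakest and the strongest of these starts read differently against that background. For the 7 starts of under 3-fold (Pcdhb9, Pcdhb12, Pcdhb16, Pcdhga3, Pcdhgb2, Pcdhga6 and Pcdhgb8) the genome-wide share of gene starts without a counterpart was 65.4% from 2-fold to under 2.5-fold and 69.0% from 2.5-fold to under 3-fold, so absence from the aged list was the usual outcome at that strength. From 3-fold to under 4-fold, where Pcdhb2 and Pcdhga7 were young-only and Pcdhgb6 was open at both ages, it was 43.4%. From 4-fold to under 5-fold, where Pcdhb3 and Pcdhb4 lay, it was 25.5%. From 5-fold to under 6-fold, where Pcdhac1 was open at both ages, it was 7.45%. From 6-fold to under 7-fold, where Pcdhgb1 lay, it was 6.75%, or 11 of 163 gene starts.

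**Figure D3:**
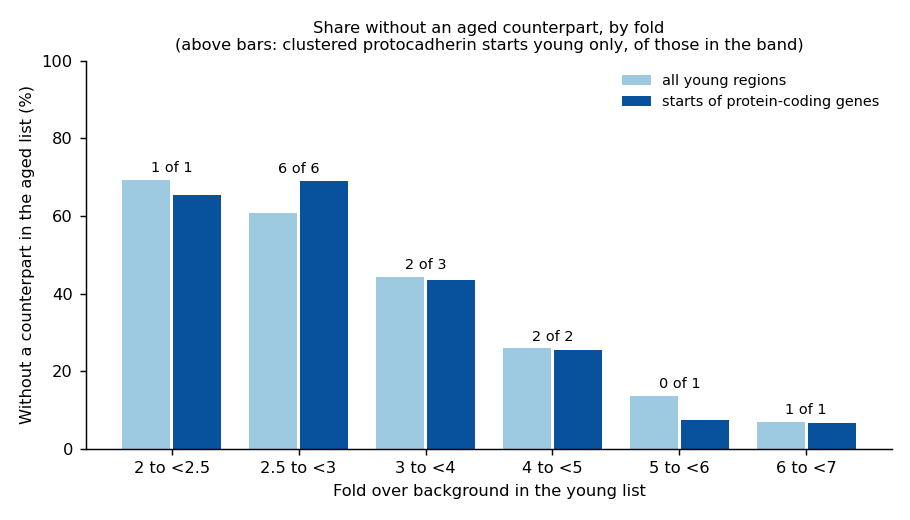
Percentage without a counterpart in the aged list, by fold over background in the young list, for all young regions (light bars) and for starts of protein-coding genes (dark bars). The numbers above the bars give the clustered protocadherin starts open in the young list only, of those in the band. The share falls from 69.4% to 6.92% for all regions, and 7 of the 12 young-only member starts lie under 3-fold, where the share is highest.

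Over the whole interval, 24 of 49 young regions (49.0%, 34.4 to 63.7) had no overlap of at least 1 bp in the aged list, against 28.2% of young regions elsewhere in the genome. In the other direction 2 of 39 aged regions (5.13%, 0.627 to 17.3) had none in the young list, against 10.7% elsewhere. These counts depend on the rule for overlap and on strength: with a reciprocal overlap of 50%, 30 young and 20 aged regions were of one age. Among the 58642 strongest regions of each list the interval held 19 young and 23 aged regions, with 1 of one age in each list. For these 2 settings no share elsewhere in the genome is given, so their counts are not read against a background. Of the 24 young-only regions, 13 lay within 1 kb of a variable exon start, with Pcdhga6 holding 2 of them. The other 11 were weak, the strongest being 4.27-fold (chr18:37860476-37860661), 18.7 kb past the gamma cluster in the span of Diaph1, a formin gene. The number of regions, 49 young and 39 aged, was slightly below the median of 54 and 45 over 87 consecutive 1 Mb windows of chromosome 18, while the adjoining 1 Mb held 89 and 78 on the proximal side and 121 and 100 on the distal side.

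**Figure D4:**
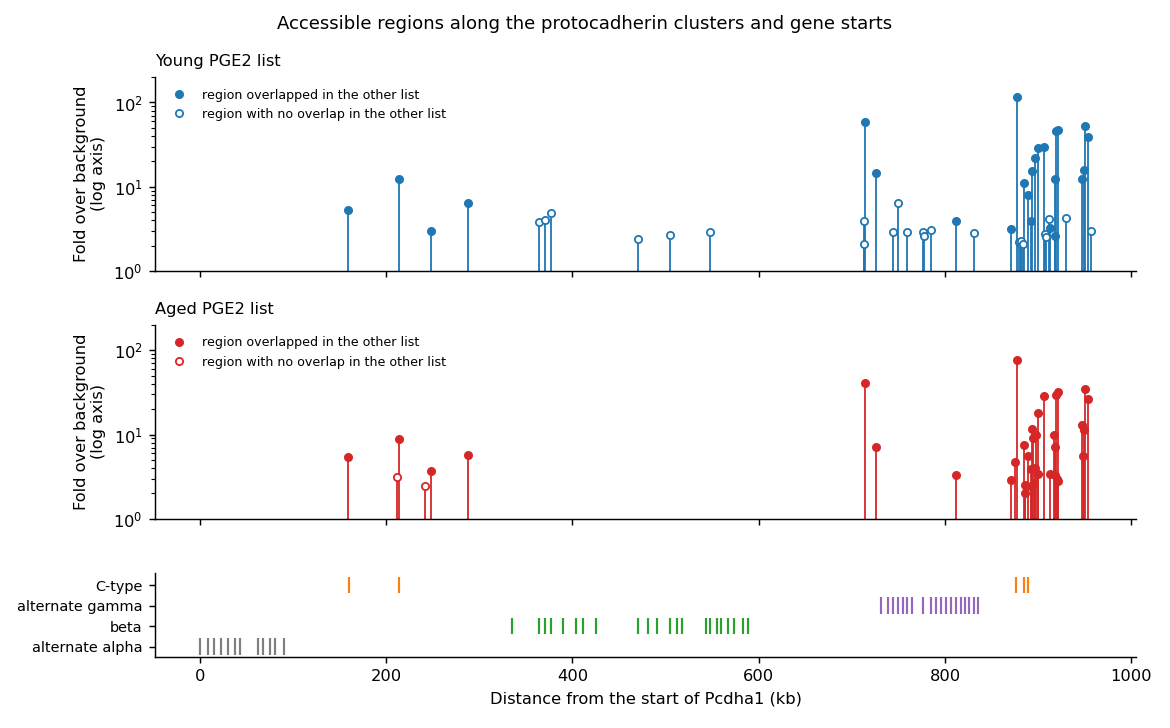
Regions along the interval, as fold over background (log axis) against distance in kb from the start of Pcdha1, in the young list (top) and the aged list (middle), with gene starts by class below; open circles mark regions with no overlap in the other list. Of the 24 open circles of the young list, 13 lie within 1 kb of beta and alternate gamma starts and 11 lie elsewhere, 9 of them downstream of the Pcdhgc3 start. The alternate alpha starts have no region, and most tall stems of both lists gather at Pcdhgc3 and downstream of it.

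Most of the accessible DNA of the interval lay in its last part, from Pcdhgc3 onward. The 36.5 kb from 1 kb before Pcdhgc3 to the end of the gamma cluster held 15 young regions covering 17701 bp and 16 aged regions covering 11872 bp. The whole interval had 36454 bp covered in the young list and 24908 bp in the aged list. Between the start of Pcdhgc5 and the 3′ end of the cluster, where the shared constant exons of the gamma genes lie, regions with summits 17.8, 14.5, 12.2 and 5.05 kb before the end came from 349, 498, 652 and 681 fragments in the young list. The strongest of these in the aged list was that at chr18:37835199-37837217, at 28.4-fold and percentile 90.6. Exon positions within the cluster were not used here, so these regions are not assigned to an exon or an intron. In the whole 36.5 kb, none of the aged regions lacked an overlap in the young list, and 7 young regions lacked an overlap in the aged list, all of 4.14-fold or less. Of the 8 young regions of the interval that overlapped more than 1 aged region, 5 lay in these 36.5 kb, those at the Pcdhgc3 and Pcdhgc4 starts among them. One, chr18:37824909-37828238 (3330 bp), overlapped 4 aged regions of 2182 bp in all.

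The 3′ ends of the clusters themselves were little open. No region lay within 1 kb of the last annotated base of the alpha cluster in either list. At the end of the gamma cluster (chr18:37841873) the young list had a region of 4.14-fold at chr18:37841332-37841596 without an aged overlap, and the aged list one of 3.41-fold at chr18:37842690-37842954 that was overlapped in the young list. The gamma end thus had a weak region within 1 kb at both ages, although the strongest was not the same one.

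Most regions between and beyond the clusters were found at both ages, the exceptions being 2 young regions between beta and gamma and 2 after gamma. The enhancer HS5-1, which acts on alpha promoters, is known to lie between the alpha and beta clusters, and the enhancers acting on beta promoters are known to lie downstream of the gamma cluster. Their positions were not used here, so no region is named as one of them. The gap between the alpha and beta clusters held 1 region in each list, 29.5 kb past the alpha end, at chr18:37218153-37218532 (6.43-fold, 145 fragments, percentile 59.2) in the young list and at chr18:37218145-37218516 (5.72-fold, 118 fragments, percentile 60.1) in the aged list. Within the alpha span a weaker region 10.4 kb before the alpha end, at chr18:37178308-37178760, had 2.99-fold (young) and 3.65-fold (aged). Both regions were thus in the range of strength of the beta and alternate gamma starts or at its upper bound, and both had a counterpart at the other age.

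Downstream of the gamma cluster, 11 young and 13 aged regions lay in the 58.1 kb up to the end of the interval, inside or just before the span of Diaph1. The strongest was at chr18:37879678-37880746 in the young list (52.7-fold, percentile 94.3) and at chr18:37879670-37880693 in the aged list (34.6-fold, percentile 92.9), 38.4 kb past the gamma end. It was followed by regions 10.4 kb (46.5-fold and 31.9-fold), 7.77 kb (46.0-fold and 29.2-fold) and 41.8 kb (38.6-fold and 26.6-fold) past the end. The order of these 4 was the same in both lists, but counting error does not separate all of them. The regions 10.4 and 7.77 kb past the end came from 1056 and 1045 fragments in the young list. In the aged list the 4 came from 720, 663, 606 and 552 fragments, which do not separate neighbours in the order. None of the 13 aged regions and 2 of the 11 young regions lacked an overlap in the other list. Between the beta and gamma clusters, the strongest region, 59.4-fold (young) and 40.6-fold (aged), lay at an end of Taf7, a gene for a general transcription factor subunit that is not a protocadherin. Close to it lay the 2 young regions of that gap without an aged overlap, at chr18:37642782-37642972 (3.96-fold) and chr18:37643341-37643533 (2.11-fold). Another region in the gap, 6.16 kb before the start of Pcdhga1, had 14.7-fold and 7.02-fold. Slc25a2, a mitochondrial carrier gene beside Taf7, had no region within 1 kb of either end in either list.

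Protocadherins outside the clusters had mostly open starts at both ages. Of 12 such genes, 11 had a start region in both lists and 1, Pcdh12, in neither. Pcdh17 (117-fold young and 59.2-fold aged), Pcdh9 (69.8-fold and 30.4-fold), Pcdh7 (67.0-fold and 44.9-fold) and Pcdh18 (62.1-fold and 37.9-fold) were the strongest in the young list. In the aged list Pcdh17 and Pcdh7 were followed by Pcdh10 (40.8-fold), ahead of Pcdh18. Pcdh20, chosen after its values were seen, had 2.86-fold (young) and 8.6-fold (aged). In families of genes expressed in other tissues most starts were without a region, like the alternate alpha starts: 46 of 53 keratin genes and 1096 of 1110 olfactory receptor genes had a start region in neither list, with 3 young-only starts in each family and 1 aged-only start, among the olfactory receptors. Of the 58 members, 12 (20.7%, or 19.3% of the 57 protein-coding members) were open in the young list only, against 5.66% of keratin and 0.27% of olfactory receptor starts. In both lists 6 (10.3%) were open, against 7.55% and 0.901%. All 12 young-only starts were beta or alternate gamma genes, so a share within those classes is not set against these families.

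**Figure D5:**
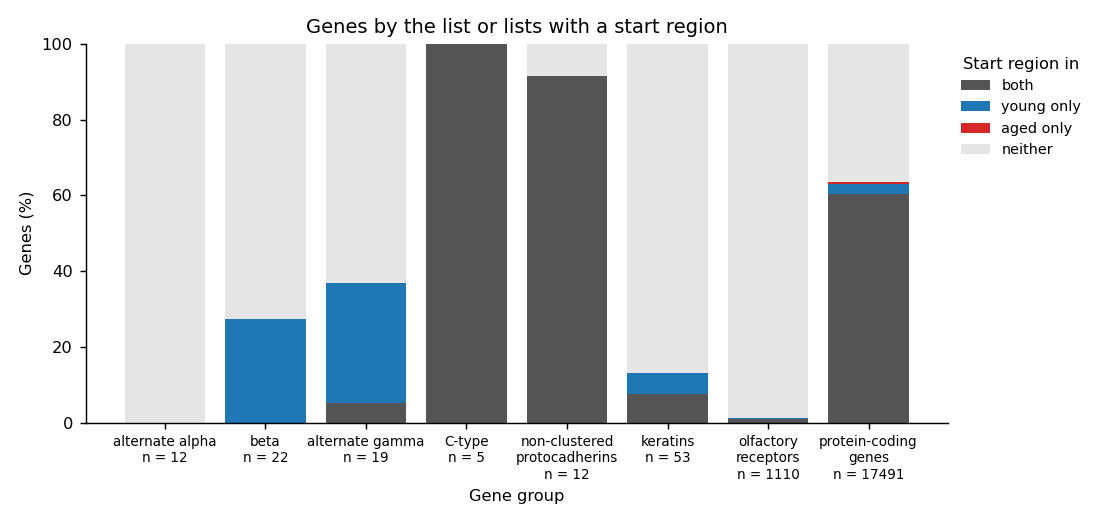
Percentage of genes with a start region in both lists (dark grey), in the young list only (blue), in the aged list only (red) or in neither (light grey), for 4 classes of clustered protocadherins, for non-clustered protocadherins, keratins and olfactory receptors, and for protein-coding genes with a known strand. Young-only starts make up 27.3% of beta genes and 31.6% of alternate gamma genes (the pseudogene Pcdhgb8 included), and no alternate alpha or C-type gene has one. The beta and alternate gamma classes hold all 12 young-only starts, so their shares are not set against the other groups. Over all 58 members the share is 20.7%, against 2.70% of protein-coding genes.

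The genes known to act on the clusters were mostly open at both ages, as were 60.4% of protein-coding genes with a known strand. Of 22 genes for CTCF, cohesin and silencing factors, 18 had a start region at both ages, 4 (Dnmt1, Dnmt3a, Stag1 and Nipbl) at neither and 0 at 1 age only. A start inside the annotated span can be missed here, since only outer ends of spans were used (both ends for 5 of the 22 genes, Nipbl among them). Smchd1, which is known to help silence clustered protocadherin genes, had 111-fold (young) and 63.5-fold (aged). Wapl, which unloads cohesin, had 111-fold and 68.8-fold, and Smc3 and Rad21, which encode cohesin subunits, 101-fold and 52.5-fold and 91.5-fold and 64.8-fold. Ctcf had 62.7-fold and 32.4-fold. Of 18 genes for partners and signalling of protocadherins, 16 had a region in both lists, among them the kinase gene Fyn (172-fold and 89.4-fold) and the actin regulators Nckap1 and Wasf1. Abi2 had one in the young list only (4.23-fold), and Axin1 had one in neither. Of these 18 genes, 9 were counted at both ends, as were 6 of the 8 cadherins that follow. Of 8 classical cadherins, 5 had a region in both lists, with Cdh15, the M-cadherin gene of muscle stem cells, strongest (78.1-fold and 61.7-fold), and Cdh5, the endothelial cadherin gene, in the young list only at 1.98-fold.

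Of the 13 genes around or between the clusters, 11 had a region at an end of the gene in both lists, among them Zmat2 before the alpha cluster (73.9-fold and 48.6-fold) and Diaph1 and Hdac3 after the gamma cluster, which share a region of 82.2-fold and 45.4-fold. Dnd1 had a young-only region of 1.89-fold and Slc25a2 none. The protocadherin clusters thus lay between neighbours with strong regions at both ages.

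The labelled cell type was checked on its markers. All 8 muscle stem cell markers (Pax7, Myf5, Itga7, Cd34, Vcam1, Calcr, Sdc4 and Cdh15) had a region in both lists, Pax7 at 26.7-fold (young) and 16.6-fold (aged). Clustered protocadherins are best known from neurons, and of 6 neuron markers 4 had a region in both lists, Elavl4 in the young list only (3.61-fold) and Rbfox3 in neither. Of 5 Schwann cell markers, 3 had a region in both lists, Sox10 in the young list only (2.95-fold) and S100b in neither. The pericyte gene Rgs5 (3.21-fold) was also young-only, and Ly6a, a fibro-adipogenic marker, had a region in the aged list only (2.5-fold). From 2.5-fold to under 4-fold, where Elavl4, Sox10 and Rgs5 lay, absence from the aged list was frequent among all gene starts, as given above by band. Of 4 fibro-adipogenic markers 3 had a region in both lists, of 4 endothelial markers 2, and of 4 smooth muscle and pericyte markers 3. Of 5 immune markers, 1 (Cd68) had a region in both lists and 4 in neither. For comparison, 60.4% of protein-coding genes with a known strand had a start region at both ages and 2.70% in young cells only. Markers without a known strand were counted at both ends, which makes a region easier to find. These were 2 of 8 muscle stem cell, 1 of 6 neuron, 4 of 5 Schwann cell and 3 of 4 fibro-adipogenic markers. They were also 2 of 4 endothelial, 2 of 4 smooth muscle and pericyte and 2 of 5 immune markers. The part of other cell types in the young-only starts was not tested.

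How reads that match several of the similar variable exons were treated is not given in the sources used here, so a start without a region is not shown to be closed.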

How the data were processed

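The submitters' processing notes name Bowtie2 as a tool and mm10, also called GRCm38, as the build. The deposited files are 2 narrowPeak lists named for MACS. Not given in the sources used here are the caller's version and options, read filters, any shift of read ends and the pooling of libraries per list. The deposited fold ratio, the −log10 q-value and the deposited score belong to each summit, as the authors' caller gave them. In both lists 100% of folds under 100 were whole multiples of a common step within a tolerance of 0.01 steps. With fold read as a ratio of pileup to background, the step gave a uniform background of 21.7 (young) and 19.8 (aged). It also gave the pileup at each summit, with a minimum of 39 and 37. The unit of the pileup is not given in the sources used here, and it is called fragments in the text. The depth of the libraries is unknown, so folds are not compared between lists, and intervals cover counting error only.

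Rows that touch or overlap (265507 young, 215838 aged) were joined into regions that keep their strongest summit (Python 3.11.15, pandas 2.3.3). Overlap by 1 bp or more with the other list made a region shared. Merging, overlap and step recovery were checked on simulated intervals. Gene spans and symbols came from a RefSeq table of GRCm38.p6. The start of a member was the lower end of its span, since the clusters are read from the plus strand. Strands of other genes came from a RefSeq promoter table, which does not cover chromosome 18, so the planned description of member promoter sequences was not made. Genes without a strand there were counted at both ends of the span. Intervals are exact Clopper-Pearson at 95%, and a count of 0 was taken to allow 3 counts.

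The members and gene lists were chosen with earlier results of these data known. Genes named were all C-type genes, all starts open in one list only (the 10 strongest if more; here all 12 are named), the 5 strongest starts per cluster and list, the 5 strongest regions away from starts, and up to 4 genes of each comparison list, first those open in one list only.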

Additional observations from a re-analysis of the deposited data

How the results depend on the processing

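The 12 young-only starts were all kept at a −log10 q of at least 5, with windows of 500 bp and 2.5 kb, with rows within 150 bp merged, and, in an alternative chosen after seeing the data, with the young list cut to the 117284 regions of the aged list. The windows and the merging could not remove any of the 12, because the nearest aged region was at least 18.2 kb from each. The cut took only young regions weaker than that of Pcdhb9, the weakest of the 12 (percentile 11.6). These settings are therefore no support for the 12. When the region had to hold the start base, 11 were kept, with Pcdhgb8 lost and Pcdhac1 gained. Without the pseudogene there were 11. At 3-fold or more, 31 young regions remained in the interval, 9 of them young-only, with 11 starts open in the young list and 5 young-only. Among the 58642 strongest regions of each list, 19 young and 23 aged regions lay in the interval, 1 young-only and 1 aged-only, with 5 starts open in the young list, 1 of them (Pcdhgb1) young-only, and 1 start (Pcdhac1) aged-only. These 2 settings remove weak regions by construction. With a reciprocal overlap of 50%, 20 aged regions counted as aged-only. Genome-wide shares are not given at these other settings, so their counts have no background beside them. The interval counts, the starts open in the aged list and the aged-only starts stayed within 1.5 times their values in the other settings tried. No paired analysis was possible because the lists give no values for their libraries.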

Other observations

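Among 216 gene families by symbol stem with at least 10 protein-coding genes of known strand, the voltage-gated calcium channel genes (stem Cacna) had the highest share of young-only starts, 3 of 10, followed by Nek, Scn and Tlr genes with 2 of 10 each (20.0%). The beta protocadherins, with 6 of 22 (27.3%), are not part of that ranking, because the strand table does not cover chromosome 18. These families were looked at after the protocadherin values were known, and the shares are descriptions of 2 lists.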
